A study of Mus musculus with 9 samples.

Results

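The genes described here encode the cytokines by which group 2 innate lymphoid cells (ILC2s) act on their surroundings. They are Il4, Il5, Il13 and Il9, the type 2 cytokines, Il3, Csf2 and Il2, growth factors of blood and immune cells, and Il6 and Il10, which other immune and stromal cells also make. They were chosen by name, as a list of 9 symbols. Of these, 8 were found among the 23466 genes of the counts table, and Il10 was not analysed here. Of the 8 genes, 6 passed the filter on low counts and were tested among 15117 genes. Il3 and Il9 did not pass it and are given as read counts.

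RNA was sequenced from sorted ILC2s of wild type C57/Bl6 mice that were 10 weeks old. Each of 3 groups had 3 libraries. Cells came from the brain meninges of mice without stress, from the brain meninges of mice that had received an 80 kdyn contusion of the spinal cord 24 h earlier, and from the lungs of mice without stress. These groups are called uninjured meninges, injured meninges and lung. No group was labelled as sham-operated, so the contusion and the surgery around it cannot be told apart. Cells were sorted as live (DAPI-), CD45+, lineage-negative, St2+ and Thy1+, and 5 mice were pooled per group. Whether the libraries of a group are separate pools is not stated in the labels, so the p-values rest on variation among libraries that may be technical.

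Libraries held 13407277 to 18253462 counts and 13465 to 18452 detected genes, with the fewest genes in injured meninges 2. A list of 10 ILC2 genes summed to 6491 to 9551 CPM over the 9 libraries. It includes the genes of the sort markers St2, CD45 and Thy1, so a high sum was set in part by the sort. Among markers of other cells not taken up with a gene here, B cell markers summed to 3.07 to 70.8 CPM and those of NK cells and ILC1s to 0.0645 to 13.9 CPM. Endothelial markers summed to 40.9 to 119 CPM in meninges and 139 to 445 CPM in lung. CPM are counts relative to the library total, after adjustment with edgeR's TMM factors.

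ILC2s are tissue-resident lymphocytes without an antigen receptor. They respond to alarmins such as IL-33, which binds ST2, and then transcribe the type 2 cytokine genes under the control of GATA3. IL-5 sustains eosinophils, IL-13 acts on epithelium, smooth muscle and macrophages, and IL-4 drives type 2 T cell responses and IgE class switching. Il4, Il13 and Il5 lie side by side in the genome in the order Il4, Il13, Rad50, Il5, and Csf2 and Il3 follow further along the same chromosome. Il1rl1, which encodes ST2, averaged 317 ± 48.9, 345 ± 58.1 and 311 ± 40.7 CPM per kb of exon in uninjured meninges, injured meninges and lung (SD, n = 3 each).

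The 3 neighbouring type 2 cytokine genes Il4, Il13 and Il5 are shown with the 250 bases before their start. They share a locus and are known targets of the same factors. Against lung, Il4 had a positive and Il13 and Il5 a negative log2 fold change, none with an adjusted p under 0.05 in the main edgeR fit. Sequences are those of RefSeq (GRCm38.p6), matched by symbol for 8 of 8 genes, and read 5′ to 3′ on the strand of the gene. The start sites used in these cells were not measured. For Il4, which has 2 starts in the table, the window lies before the more upstream one. Capitals mark matches, on either strand, to the GATA motif (AGATAA, also with T as its first or G as its last letter), the NFAT core GGAAA and the TATA box TATAAA. The AP-1 letters TGANTCA, the STAT letters TTCNNNGAA and the NF-kB motif were searched too and were not in these 3 windows.
Il4, chr11:53618666-53618915, minus strand: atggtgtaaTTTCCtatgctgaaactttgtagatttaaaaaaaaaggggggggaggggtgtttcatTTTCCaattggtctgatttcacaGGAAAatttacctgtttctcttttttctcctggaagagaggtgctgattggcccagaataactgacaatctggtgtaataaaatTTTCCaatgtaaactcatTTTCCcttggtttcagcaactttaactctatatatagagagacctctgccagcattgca
Il13, chr11:53634703-53634952, minus strand: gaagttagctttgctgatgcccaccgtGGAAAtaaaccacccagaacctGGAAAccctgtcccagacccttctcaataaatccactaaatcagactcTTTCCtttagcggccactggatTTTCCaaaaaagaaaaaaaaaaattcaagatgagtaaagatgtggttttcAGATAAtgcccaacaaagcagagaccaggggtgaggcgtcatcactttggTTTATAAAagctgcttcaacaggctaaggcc
Il5, chr11:53720544-53720793, plus strand: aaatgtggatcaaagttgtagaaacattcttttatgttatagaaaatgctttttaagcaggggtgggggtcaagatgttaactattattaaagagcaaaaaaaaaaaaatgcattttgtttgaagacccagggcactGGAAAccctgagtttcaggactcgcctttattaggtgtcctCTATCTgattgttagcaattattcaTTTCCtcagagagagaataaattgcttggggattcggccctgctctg
The Il4 window held 5 NFAT matches and no match to the GATA letters. In the Il13 window there were 4 NFAT matches, 1 GATA match and 2 TATA matches that overlap each other on opposite strands. The Il5 window held 2 NFAT matches and 1 GATA match. NFAT letters were found in all 8 cytokine windows, against 55.6% of 32851 promoter windows of this length. GATA letters were found in 5 of the 8, against 26.5%, and the windows of Il4, Il9 and Il2 were the 3 without them. TATA letters were in 12.4% of all windows. Such a short match is a description of the letters and not a bound site.

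Il4 was the one cytokine gene of the 8 with a lower mean in lung than in both meningeal groups. In uninjured meninges the 3 libraries had 2.78, 6.58 and 9.61 CPM. In injured meninges they had 13.4, 8.35 and 2.51 CPM, and in lung 1.41, 0.663 and 0 CPM. All 6 meningeal libraries therefore lay above all 3 lung libraries, a pattern shown by 1.8% of the genes tested. The opposite pattern, all 6 below all 3 lung libraries, was shown by 5.38% of genes and by none of the 6 cytokine genes tested. In raw reads, lung 1 to 3 held 23, 9 and 0 Il4 counts, and the 0 allows up to 0.192 CPM, a limit that covers counting error only. Against lung the log2 fold change was 3.17 ± 1.53 for uninjured meninges (SE, edgeR adjusted p = 0.64, 95% interval -0.076 to 6.43) and 3.53 ± 1.55 for injured meninges (adjusted p = 0.33, 0.23 to 6.83). Neither passed the threshold of 0.05. Between injured and uninjured meninges the value was 0.36 ± 1.40 (adjusted p = 0.98), with overlapping libraries.

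Basophils and mast cells also transcribe Il4. Their 9 markers summed to 2.06 to 26.6 CPM in uninjured meninges, 3.26 to 13.0 CPM in injured meninges and 41.5 to 59.3 CPM in lung. In lung, 4 of the 9 had reads. Hdc, which encodes histidine decarboxylase, had 28.8, 44.8 and 36.8 CPM there, while the meningeal libraries had 0.707, 0 and 0 CPM without injury and 11.7, 0 and 2.51 CPM with it. Cpa3, which encodes the mast cell protease carboxypeptidase A3, had 12.4, 6.78 and 20.3 CPM in lung, while the meningeal libraries had 10.9, 2.06 and 1.14 CPM without injury and 0.0597, 0.318 and 0.752 CPM with it. Mcpt4 had 4, 0 and 20 counts in lung and none in meninges, and Fcer1a had 0, 1 and 14 counts in lung and 2 in all of meninges.

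The other 5 markers, Mcpt8, Ms4a2, Prss34, Cma1 and Tpsb2, had reads in meninges and none in any lung library. Mcpt8, Prss34 and Cma1 had 70, 62 and 14 counts in uninjured meninges 1 and at most 2 in any other library. Tpsb2 had 2 counts, in uninjured meninges 3 only. Ms4a2, which encodes the beta chain of the IgE receptor, was at 6.91, 0 and 4.16 CPM in the uninjured meningeal libraries and at 1.25, 2.78 and 0 CPM in the injured ones. The markers thus differed in direction between the tissues, and the part of such cells in the Il4 level was not tested. In these bulk samples, fewer cells of a type and less RNA per cell cannot be told apart.

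Il5, the eosinophil survival and growth factor, had its highest levels in lung. The libraries had 2.94, 4.13 and 24.2 CPM in uninjured meninges, 29.1, 16.0 and 8.21 CPM in injured meninges and 24.3, 23.8 and 95.2 CPM in lung. The means were 10.4 ± 11.9, 17.8 ± 10.6 and 47.8 ± 41.1 CPM (SD, n = 3 each), and neighbouring groups in this order overlapped. Uninjured meninges 3 stood above the other libraries of its group at a level close to that of lung 1 and 2. Between uninjured meninges and lung its log2 fold change was -2.20 ± 0.85 (SE, edgeR adjusted p = 0.44, unadjusted p = 0.02). It was -3.75 without uninjured meninges 3 (adjusted p = 0.12) and -1.21 without lung 3 (adjusted p = 0.96). Between injured and uninjured meninges it was 0.77 ± 0.82 (adjusted p = 0.86), with a 95% interval from -0.98 to 2.52. That interval covers no change as well as rises of several fold. An antisense gene, Gm12214, overlaps exons of Il5 in the annotation, and its reads cannot be told apart from those of Il5 if counting ignored strand.

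Il13, the effector cytokine of epithelial and macrophage responses, had the log2 fold changes nearest 0 against lung among Il4, Il13, Il5 and Csf2. Its libraries had 10.8, 2.32 and 7.79 CPM in uninjured meninges, 9.26, 5.73 and 2.38 CPM in injured meninges and 6.94, 14.3 and 10.9 CPM in lung. All 3 groups overlapped. The log2 fold changes were -0.27 ± 1.00 for injured against uninjured meninges (edgeR adjusted p = 0.98), -0.62 ± 1.00 for uninjured meninges against lung (adjusted p = 0.99) and -0.89 ± 1.01 for injured meninges against lung (adjusted p = 0.79). The gene for IL-9, an autocrine survival factor of ILC2s, had 4 counts in lung 3 and 0 in each of the other 8 libraries. No fold is given for Il9, because its mean in lung, 0.0854 CPM, is below the level of 3 counts.

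**Figure D1:**
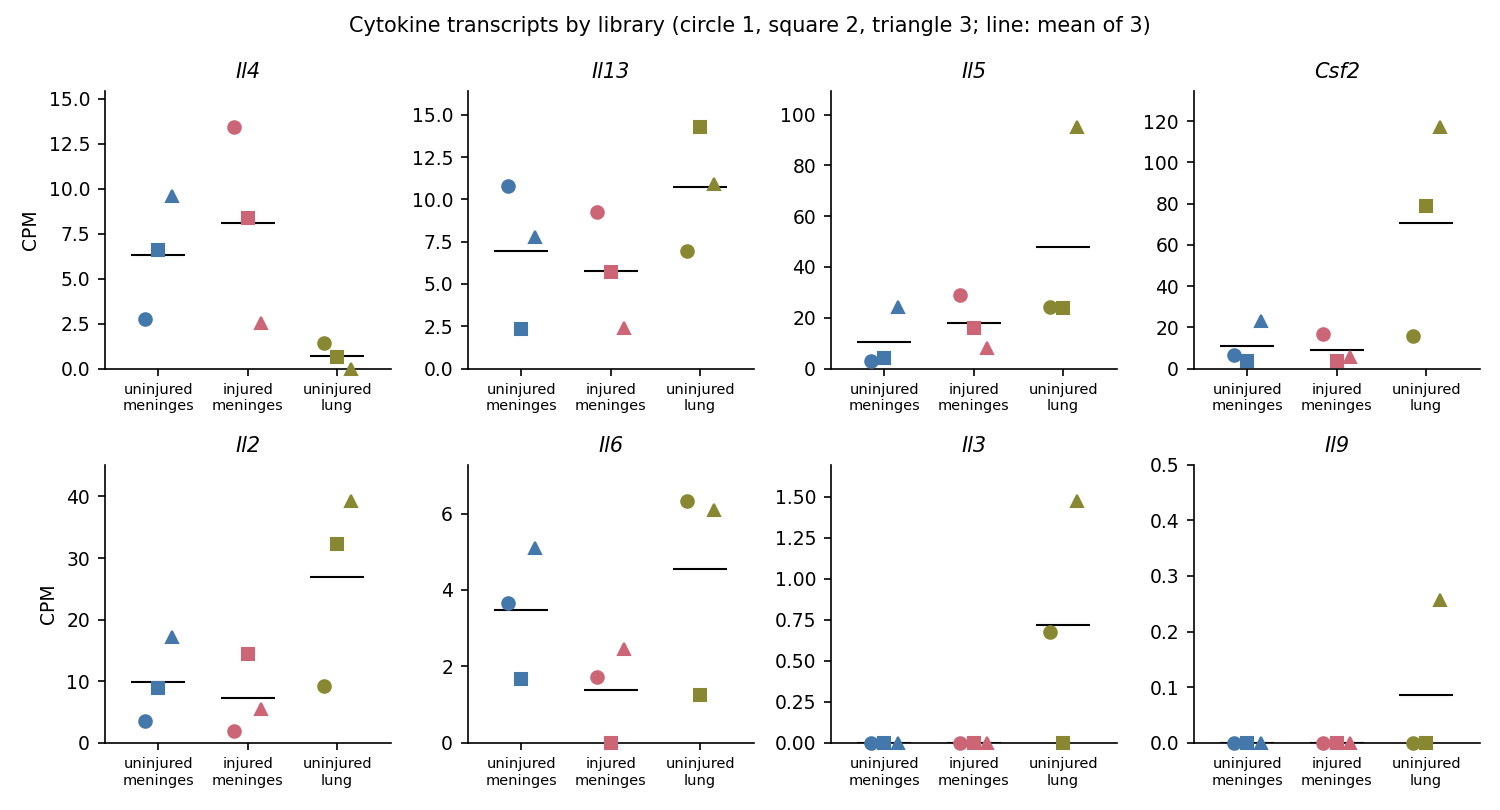
Levels of the 8 cytokine genes in CPM (vertical axes, each from 0 and on its own scale) in the 3 groups, with 1 point per library and a line at the mean of 3 libraries. Il4 is at 2.51 CPM or more in every meningeal library and at 1.41 CPM or less in lung, while the highest Csf2, Il5 and Il2 values are in lung 3.

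Csf2, which encodes the myeloid growth factor GM-CSF, was the cytokine gene with the smallest p against lung. Its libraries had 6.58, 3.48 and 23.2 CPM in uninjured meninges, 16.8, 3.74 and 5.77 CPM in injured meninges and 15.7, 78.8 and 117 CPM in lung. Lung 2 and 3 lay above all meningeal libraries, and lung 1 lay within their range. The log2 fold change was -2.67 ± 0.85 for uninjured meninges against lung (SE, edgeR adjusted p = 0.25, 95% interval -4.47 to -0.87) and -3.00 ± 0.86 for injured meninges against lung (adjusted p = 0.13, -4.83 to -1.18). Between the meningeal groups it was -0.33 ± 0.80 (adjusted p = 0.95). The pooled contrast of both meningeal groups against lung, chosen after these values were seen, gave -2.84 ± 0.67 (edgeR adjusted p = 0.037), and that contrast called 1 of the 6 genes and 2.12% of all genes (321). The sources used here do not say if strand was used in counting, and an antisense gene, Gm12223, overlaps exons of Csf2. Gm12223 had 0 to 21 counts per library, against 47 to 1830 for Csf2. Lung epithelial markers summed to 2108, 638 and 1262 CPM in lung 1 to 3 and to 3.76 to 27.6 CPM in meninges. Lung 1 thus had the highest such sum and the lowest Csf2 level of its group. The part of such cells in the Csf2 level was not tested.

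Il2, a T cell growth factor that also sustains ILC2s, had 3.48, 8.90 and 17.2 CPM in uninjured meninges, 1.91, 14.4 and 5.45 CPM in injured meninges and 9.28, 32.3 and 39.3 CPM in lung. As for Csf2, lung 2 and 3 lay above all meningeal libraries and lung 1 within their range. The log2 fold change was -1.45 ± 0.89 for uninjured meninges (edgeR adjusted p = 0.81) and -1.89 ± 0.91 for injured meninges (adjusted p = 0.39) against lung. Il2 overlaps Adad1, a gene on the opposite strand, without shared exons. In injured meninges, Adad1 had 3, 362 and 77 counts and Il2 had 32, 181 and 87, so both were highest in injured meninges 2 and lowest in injured meninges 1. In uninjured meninges Adad1 had 40, 8 and 102 counts against 64, 138 and 256 for Il2. In lung they had 53, 106 and 39 against 151, 438 and 613, so that lung 3 had the fewest Adad1 and the most Il2 counts. The part of Adad1 reads in the Il2 level was not tested. T cells are a known source of Il2. The 6 T cell markers summed to 9.81 to 49.4 CPM in uninjured meninges, 2.26 to 103 CPM in injured meninges and 12.9 to 44.4 CPM in lung. Injured meninges 2 had both the highest sum of T cell markers, 91.9 CPM of it Cd3g, and the highest Il2 level of its group. In uninjured meninges 1, the highest T cell sum of the group, 49.4 CPM, went with its lowest Il2 level, 3.48 CPM. Injured meninges 3 had the lowest sum and more Il2 than injured meninges 1, where the sum was 38.2 CPM. The part of these cells in the Il2 level was not tested. Il2ra, the alpha chain of the IL-2 receptor, was the most abundant receptor gene for these cytokines. It averaged 226 ± 40.1, 297 ± 15.8 and 238 ± 62.4 CPM per kb in uninjured meninges, injured meninges and lung.

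Il3, the multi-lineage growth factor gene next to Csf2, was detected only in lung, with 11 counts in lung 1, 0 in lung 2 and 23 in lung 3. It had no reads in any of the 6 meningeal libraries, where 3 counts per library correspond to 0.163 to 0.239 CPM. The mean lung level of 0.716 ± 0.737 CPM (SD, n = 3) was 3.85-fold the level of 3 counts per library in uninjured meninges. For injured meninges this value was 3.55-fold. Both leave out the spread in lung, where lung 2 had 0 reads, and so are not lower limits of a difference. In a fit without a filter on low counts, Il3 had an edgeR adjusted p of 0.54 and 0.38 in these comparisons. Lung 3, with the most Il3 reads, was also highest for Il5, Csf2 and Il2 and was the one library with Il9 reads.

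Il6, a pleiotropic inflammatory cytokine, had 3.65, 1.68 and 5.11 CPM in uninjured meninges, 1.73, 0 and 2.44 CPM in injured meninges and 6.33, 1.25 and 6.09 CPM in lung. The groups overlapped. The 0 in injured meninges 2 allows up to 0.239 CPM. Between injured and uninjured meninges its log2 fold change was -1.31 ± 1.64 (SE, edgeR adjusted p = 0.88, 95% interval -4.80 to 2.18). Fibroblasts and macrophages are known sources of Il6. Fibroblast markers summed to 3.29 to 77.3 CPM in uninjured meninges, 3.89 to 33.7 CPM in injured meninges and 84.5 to 249 CPM in lung, and those of monocytes and macrophages to 5.84 to 80.4, 61.4 to 144 and 34.3 to 480 CPM. In lung 2, the Il6 level and both sums were the lowest of the 3 lung libraries. In injured meninges 3 the Il6 level was the highest of its group and both sums the lowest, and in uninjured meninges 3 the highest Il6 level went with the lowest macrophage sum. The part of these cells in the Il6 level was not tested.

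None of the 6 cytokine genes tested was called in any of the 3 comparisons (edgeR, adjusted p under 0.05). For injured against uninjured meninges, 0.192% of all genes were called, 0.132% higher and 0.0595% lower after injury. For uninjured meninges against lung, 0.635% were called, 0.0397% higher and 0.595% lower in meninges. For injured meninges against lung, 1.05% were called, 0.179% higher and 0.873% lower in meninges.

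At an unadjusted p under 0.05, none of the 6 genes passed for injured against uninjured meninges, against 8.94% of all genes (4.58% higher, 4.36% lower). Il5 and Csf2 passed as lower in uninjured meninges than in lung, against 7.98% of all genes (2.41% higher, 5.58% lower). Il4 passed as higher and Csf2 as lower in injured meninges than in lung, against 13.3% of all genes (5.21% higher, 8.04% lower). DESeq2 called none of the 6 in the first comparison, none in the second and 2 in the third, which were Il4 (3.54 ± 1.16, adjusted p = 0.038) and Csf2 (-3.03 ± 0.87, adjusted p = 0.013). Of all genes, DESeq2 called 2.86%, 3.52% and 7.02% in these comparisons.

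All 6 genes overlapped between injured and uninjured meninges, where 5.35% of all genes lay higher and 6.79% lower without overlap. Il4 lay higher without overlap in uninjured meninges than in lung, as did 7.63% of all genes, and none of the 6 lay lower, as did 10.6%. It lay higher in injured meninges than in lung too, as did 6.38% of all genes, and again none lay lower, as did 11.4%. The median log2 fold change of the 6 genes was -0.30, -1.03 and -1.56, against -0.0047, 0.0019 and -0.01 for all genes. The comparisons share control libraries, so their values are not independent of each other.

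**Figure D2:**
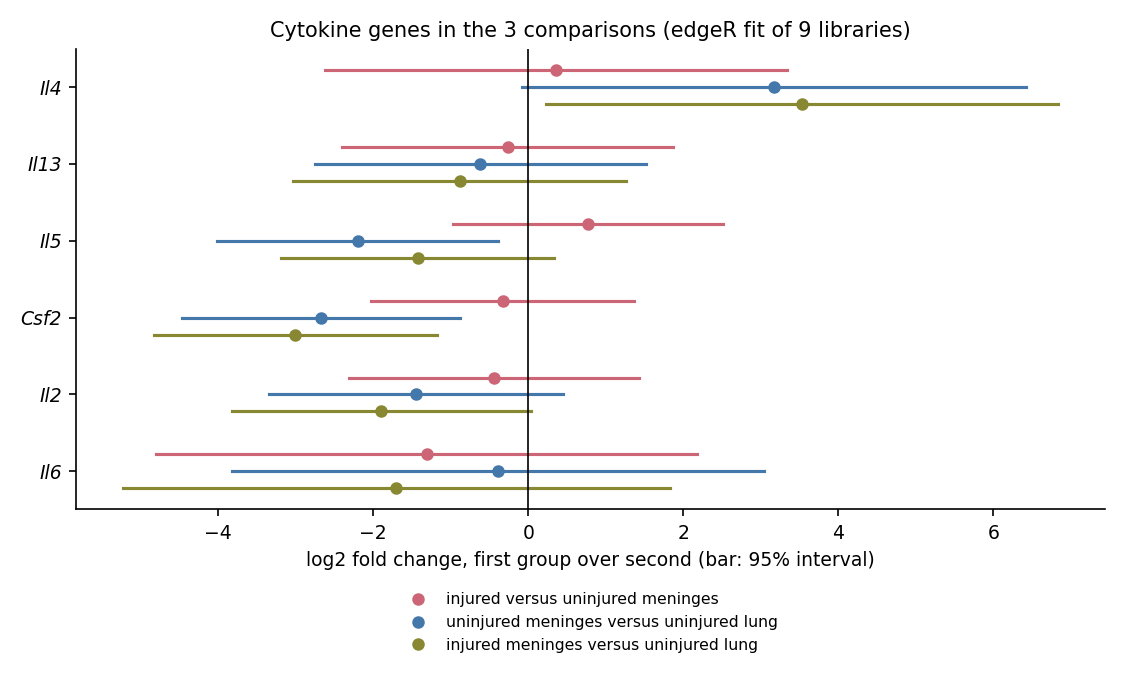
Log2 fold change of the 6 tested cytokine genes (horizontal axis, first group over second) in the 3 comparisons, with 95% intervals from the edgeR fit. The intervals of Csf2 lie below 0 in both comparisons with lung, and all intervals for injured against uninjured meninges include 0.

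The make-up of the cytokine transcripts can be read within each library, free of scaling between libraries. Il4 made up 9.19%, 24.3% and 11.0% of the reads of the 8 genes in uninjured meninges and 18.6%, 17.3% and 9.37% in injured meninges. In lung it made up 2.18% (95% Wilson interval 1.46 to 3.26), 0.439% (0.231 to 0.832) and 0%, where 0 of 4222 reads allows a share of up to 0.0711%. These intervals cover counting error only, since amplified reads are not independent molecules. The lowest meningeal share was 9.19% (7.06 to 11.9). The ratio of Il4 to Il5 reads was 0.305 to 1.59 in the meningeal libraries and 0 to 0.0581 in lung. The ratio of Il4 to Il13 reads was 0.258 to 2.83 in the meningeal libraries and 0 to 0.204 in lung. Its gap between the tissues was thus small, from 0.204 in lung 1 to 0.258 in uninjured meninges 1.

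Il5 took 9.73% to 27.8% of these reads in uninjured meninges and 30.7% to 40.2% in injured meninges, without overlap, and 15.7% to 37.6% in lung. Csf2 took 12.9% to 26.6%, 7.76% to 23.3% and 24.3% to 52.2%. The ratio of Csf2 to Il5 reads was 2.24, 0.844 and 0.958 in uninjured meninges and 0.579, 0.234 and 0.702 in injured meninges, so that every injured library was lower. In lung it ranged from 0.646 to 3.31. The ratio of Il13 to Il5 reads overlapped between the meningeal groups, at 0.322 to 3.67 without injury and 0.290 to 0.358 with it. In CPM, Il5 and Csf2 overlapped between these groups too, where 5.35% of all genes lay higher and 6.79% lower without overlap. The shares sum to a whole in each library, so that a lower share of 1 gene goes with a higher share of others. In uninjured meninges 1, Il13 took 35.7% of these reads, and in uninjured meninges 2, Il2 took 32.9%. Neither shares nor ratios were tested, and the percentages of all genes given for CPM are not a background for them.

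**Figure D3:**
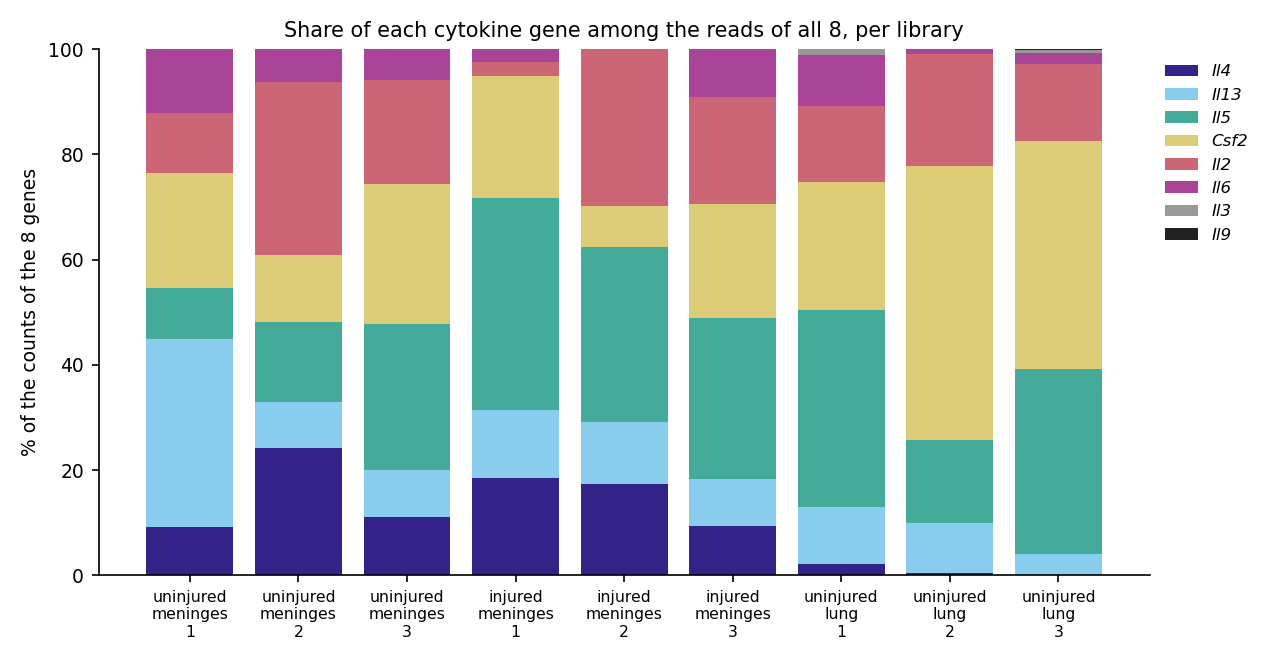
Share of each gene in the summed read counts of the 8 cytokine genes (vertical axis, percent) in each of the 9 libraries. Il4 takes 9.19% or more in each meningeal library and 2.18% or less in lung, where Csf2 takes 24.3% to 52.2%.

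Per kb of exon, the order of the mean levels differed between the groups. Neighbours in each order overlapped over the libraries, except that every Il6 value lay below all values of the gene before it in each group, and that Il9 and Il3, at 0 counts, lay below Il6 in uninjured meninges. In uninjured meninges Csf2 led with 13.9 ± 13.2 CPM per kb, followed by Il2 with 8.62 ± 6.04, Il5 with 6.78 ± 7.77, Il13 with 5.78 ± 3.56, Il4 with 5.15 ± 2.79 and Il6 with 1.43 ± 0.708 (SD, n = 3). After injury Il5 led with 11.6 ± 6.87 CPM per kb, followed by Csf2 with 11.0 ± 8.82, Il4 with 6.60 ± 4.46, Il2 with 6.34 ± 5.62, Il13 with 4.80 ± 2.85 and Il6 with 0.573 ± 0.518. In lung Csf2 had 88.2 ± 64.0, Il5 31.1 ± 26.7, Il2 23.5 ± 13.7, Il13 8.89 ± 3.05, Il6 1.88 ± 1.18, Il3 1.14 ± 1.17 and Il4 0.564 ± 0.576 CPM per kb. Given for scale, Gata3, the gene of the factor that controls the locus, averaged 138 ± 21.2, 135 ± 14.6 and 140 ± 15.4 CPM per kb in uninjured meninges, injured meninges and lung. Each cytokine gene thus averaged below Gata3 per kb in each group.

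The cytokine genes varied between libraries of a group. Within-group SDs of log2 CPM were 1.38 for Il4, 1.25 for Il5, 0.91 for Il13, 1.34 for Csf2, 1.23 for Il2 and 1.62 for Il6. For 6982 genes with a mean of 5 to 50 CPM the median was 0.96, with quartiles of 0.66 and 1.46. All tested cytokine genes but Il6 lay between these quartiles, and Il6, with a mean of 3.14 CPM, is outside that range of means. In edgeR's own estimate of the spread, the coefficient of variation was 0.70 for Il5 and 0.68 for Csf2. The median of those 6982 genes was 0.71, and the other tested cytokine genes had 0.76 to 1.21. The highest library of uninjured meninges exceeded the lowest 8.23-fold for Il5 and 6.65-fold for Csf2. Uninjured meninges 3 was highest of its group for 5 of the 6 genes, all but Il13. Injured meninges 1 was highest of its group for Il4, Il5, Il13 and Csf2 and lowest for Il2. Standard errors were 0.80 to 1.64 for injured against uninjured meninges, so changes of a few fold in these genes could not be told from no change.

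**Figure D4:**
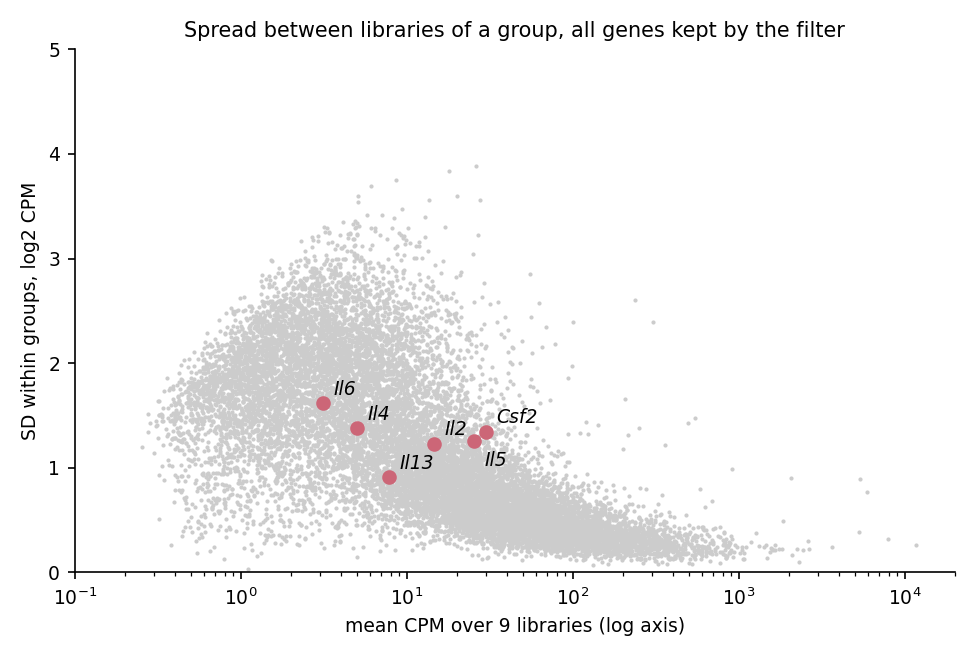
Standard deviation of log2 CPM within groups (vertical axis) against mean CPM over 9 libraries (horizontal log axis), with 1 grey point per gene kept by the filter and the 6 cytokine genes in red. Il5 (SD 1.25) and Csf2 (1.34) lie above the median of 0.96 for genes of 5 to 50 CPM, and Il13 (0.91) lies just under it. All of these lie between the quartiles of 0.66 and 1.46.

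Along chromosome 11, 18 protein-coding genes from Sept8 to Meikin were taken in the order of the GENCODE M21 annotation, and 13 passed the filter, 4 of them cytokine genes. The cytokine genes did not share 1 direction against lung, since Il4 had a positive and Il13, Il5 and Csf2 a negative log2 fold change. Rad50, a DNA repair gene between Il13 and Il5, averaged 289 ± 11.3 CPM before injury and 236 ± 29.3 CPM after it in meninges, against 236 ± 20.5 CPM in lung. Kif3a, a kinesin gene on the far side of Il4, stood at 39.3 ± 7.85, 26.5 ± 22.7 and 13.1 ± 4.55 CPM in uninjured meninges, injured meninges and lung, with a log2 fold change of 1.59 ± 0.82 for uninjured meninges against lung (edgeR adjusted p = 0.68). Its libraries did not overlap between those groups, but overlapped between injured meninges and lung. None of the 9 other genes was called in any of the 3 comparisons. Kif3a is shown because it borders Il4, a choice made after its values were seen.

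**Figure D5:**
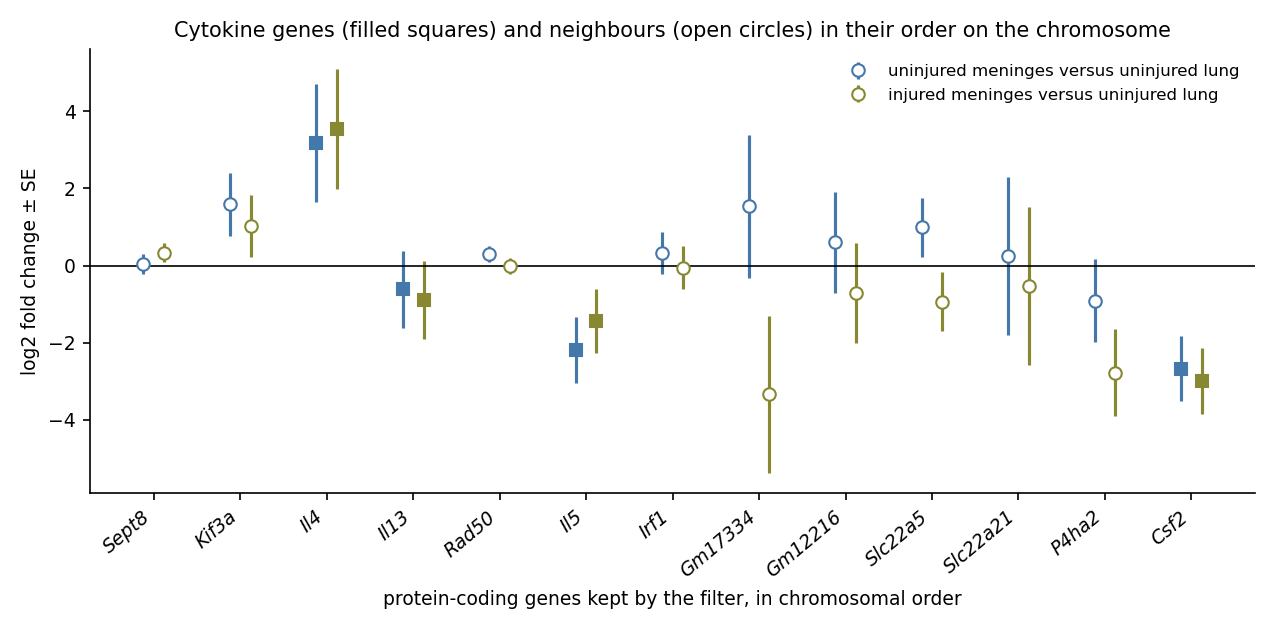
Log2 fold change with SE (vertical axis) of the 13 tested protein-coding genes of this stretch of chromosome 11 in their order (horizontal axis), for uninjured and for injured meninges against lung. Il4 stands at 3.17 and 3.53, while Il13, Il5 and Csf2 (filled squares) lie below 0 in both comparisons.

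In the wider pathway, some genes from the lists of transcription factors, mRNA decay regulators and other secreted products were called lower in meninges than in lung. Of 28 transcription factors of type 2 cytokine genes, edgeR called none for injured against uninjured meninges, 1 lower in uninjured meninges than in lung and 3 lower in injured meninges than in lung, and none higher. Of all genes, 0.595% were called lower in uninjured and 0.873% in injured meninges than in lung. At an unadjusted p under 0.05 there were 5, 7 and 6 of the 28, against 8.94%, 7.98% and 13.3% of all genes. Rel, the NF-kB subunit c-Rel, had 58.2, 43.2 and 76.6 CPM in uninjured meninges, 64.4, 47.2 and 116 CPM in injured meninges and 175, 299 and 389 CPM in lung. Its log2 fold change was -2.28 ± 0.38 (edgeR adjusted p = 0.0077) for uninjured and -1.92 ± 0.38 (adjusted p = 0.021) for injured meninges against lung. Leaving out uninjured meninges 2 or lung 3 ended the first call (edgeR adjusted p of 0.057 and 0.058), and leaving out injured meninges 1, lung 2 or lung 3 ended the second (0.051, 0.065 and 0.13). Bhlhe40, which promotes cytokine production in lymphocytes, had 442, 649 and 674 CPM in lung. Its meningeal libraries were at 166, 245 and 341 CPM without injury and at 175, 66.3 and 110 CPM with it, and it was called for injured meninges (-2.33 ± 0.34, adjusted p = 0.0028). Junb, an AP-1 subunit, had 220, 375 and 281 CPM in lung and 61.2, 51.7 and 54.5 CPM in injured meninges, and was called there too (-2.39 ± 0.42, adjusted p = 0.011). Uninjured meninges had 37.5, 78.0 and 165 CPM of Junb, also below lung without overlap, but it was not called (-1.64 ± 0.41, edgeR adjusted p = 0.10). Nfkb1 had the highest mean CPM of the list over the 9 libraries, while in injured meninges Rora was higher. The list's median log2 fold change was 0.28, -0.29 and -0.36 in the 3 comparisons.

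Of 14 genes listed as regulators of cytokine mRNA decay, Tnfaip3 and Zfp36 were called lower in meninges in both comparisons with lung. Of all genes, 0.595% were called lower in uninjured and 0.873% in injured meninges. None of the 14 was called after injury. At an unadjusted p under 0.05 there were 6, 3 and 4 of the 14 in the 3 comparisons, against 8.94%, 7.98% and 13.3% of all genes. Zfp36 encodes tristetraprolin, which binds AU-rich elements of cytokine messages and promotes their decay. It had 61.7, 76.3 and 217 CPM in uninjured meninges, 46.9, 53.5 and 72.1 CPM in injured meninges and 537, 980 and 909 CPM in lung. The log2 fold change was -2.77 ± 0.41 (edgeR adjusted p = 0.0032) for uninjured and -3.81 ± 0.43 (adjusted p = 0.00027) for injured meninges. Each lung library lay above each meningeal one. Tnfaip3 encodes A20, a feedback inhibitor of NF-kB and not itself an mRNA decay factor. It had 129, 131 and 184 CPM in uninjured meninges, 339, 229 and 569 CPM in injured meninges and 1478, 1952 and 1898 CPM in lung. Its log2 fold change against lung was -3.58 ± 0.30 (edgeR adjusted p = 4.5e-05) for uninjured and -2.23 ± 0.28 (adjusted p = 0.00077) for injured meninges. The injured libraries lay above the uninjured ones without overlap, with a log2 fold change of 1.36 ± 0.28 that did not pass (adjusted p = 0.074). Cnot6l had the highest mean CPM of the list over the 9 libraries, while in lung Tnfaip3 and Zfp36 were higher. The list's median log2 fold change was 0.21, -0.13 and -0.01.

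Of 15 other secreted products of ILC2s, Areg was called lower in meninges in both comparisons with lung, and Lif and Vegfa in that of injured meninges. The shares of all genes called lower there were 0.595% for uninjured and 0.873% for injured meninges. Areg, which encodes the epithelial growth factor amphiregulin, had 11.6, 19.8 and 25.9 CPM in uninjured meninges, 6.45, 5.09 and 14.5 CPM in injured meninges and 67.6, 320 and 222 CPM in lung. The log2 fold change was -3.41 ± 0.57 (edgeR adjusted p = 0.0072) for uninjured and -4.54 ± 0.60 (adjusted p = 0.00098) for injured meninges, and the libraries did not overlap. Lif, an IL-6 family cytokine, had 55.2, 145 and 159 CPM in lung. The libraries had 15.9, 30.7 and 51.1 CPM in uninjured meninges and 5.91, 1.83 and 17.7 CPM in injured meninges. For uninjured meninges against lung the log2 fold change of Lif was -1.88 ± 0.67, without overlap, and it was not called (edgeR adjusted p = 0.35). It had a log2 fold change of -3.82 ± 0.73 for injured meninges against lung (edgeR adjusted p = 0.017), and its call was lost without injured meninges 1 (0.057), lung 2 (0.051) or lung 3 (0.072). Vegfa, the vascular growth factor gene, had 71.6, 24.2 and 54.1 CPM in lung and at most 2.71 CPM in meninges. For uninjured meninges against lung its log2 fold change was -5.55 ± 1.25, and it was not called (edgeR adjusted p = 0.065). For injured meninges against lung it was called (-6.14 ± 1.29, edgeR adjusted p = 0.03). That call was lost without injured meninges 3 (0.099), lung 1 (0.15) or lung 3 (0.11). Lung epithelial markers summed to 2108, 638 and 1262 CPM in lung 1 to 3 and to 3.76 to 27.6 CPM in meninges. Over the lung libraries, Vegfa had the same order as this sum and Areg the reverse order. The part of such cells in the levels of Areg and Vegfa was not tested. The list's median was -0.18, -1.68 and -0.87. None of the 15 was called after injury. At an unadjusted p under 0.05 there were 3, 5 and 5 of the 15 in the 3 comparisons, against 8.94%, 7.98% and 13.3% of all genes. Calca, the gene of the neuropeptide CGRP, had the highest mean of the list over the 9 libraries, which rested on injured meninges. It was at 5.33 ± 6.26 CPM without injury and 473 ± 134 CPM with injury in meninges, and 169 ± 79.3 CPM in lung. After injury its log2 fold change was 6.48 ± 1.05 (edgeR adjusted p = 0.085), with no overlap. Over all 6 lists, DESeq2 called 6 of 93 genes after injury, against 2.86% of all genes. These were Calca, Tnfaip3, Il18r1, Fosl2, Il10ra and Rora, each higher after injury.

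In the edgeR fit, receptor genes and neighbours of the locus gave no call in any of the 3 comparisons. This held for 14 receptor genes of the cytokines described here, with medians of 0.33, -0.64 and -0.30, and for 14 receptors that activate ILC2s, with medians of 0.49, -0.19 and 0.16. Among the latter, unadjusted p was under 0.05 for 7, 6 and 3 genes, and among the former for 1, 1 and 0 genes, against 8.94%, 7.98% and 13.3% of all genes. The 8 locus neighbours tested had medians of -0.47, 0.31 and -0.03, with 1, 0 and 1 genes at an unadjusted p under 0.05. After injury, DESeq2 called the receptor genes Il18r1 (2.21 ± 0.46, adjusted p = 0.00031) and Il10ra (1.99 ± 0.54, adjusted p = 0.015) as higher. In edgeR their log2 fold changes were 2.19 ± 0.46 (adjusted p = 0.085) and 1.96 ± 0.49 (adjusted p = 0.19), with no overlap between the meningeal groups.

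Genes with the pattern most like that of each cytokine gene were taken by Pearson correlation of log2 CPM over the 9 libraries, among 7405 named genes of at least 10 mean CPM. The points share their libraries, and with this many genes and 9 points high values are a description only. For Il4 these were Tti2 (r = 0.951), Mars2 (0.945) and Adal (0.922), with 28.7, 23.8 and 45.0 CPM in uninjured meninges and 13.7, 10.3 and 13.9 CPM in lung. For Csf2 they were Cnbp (0.977), Tusc3 (0.966) and Timm44 (0.948). For Il5 they were Zbtb10 (0.924), Vav3 (0.915) and Sppl2a (0.887), and for Il2 Homer1 (0.962), Stap1 (0.937) and Baz1a (0.921). Il13 was followed most closely by Dcn (0.923), which encodes the fibroblast product decorin, then by Ifitm3 (0.903) and Rasal2 (0.888). Il6 was followed by Eri3 (0.981), Rab27a (0.977) and Cog2 (0.967). None of these 18 genes was named for more than 1 cytokine gene.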

How the data were processed

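The deposited table holds the number of reads per Ensembl gene as whole-number counts, not normalized by the authors. The submitters' processing notes name FastQC, STAR, HTSeq and mm9, without versions or roles. Per the labels' protocols, RNA was extracted with the PicoPure kit and amplified before library preparation, and amplification can widen the spread of scarce transcripts. Symbols came from the table for 15969 genes, and 7407 more identifiers matched a reference list. Exon lengths and gene order came from GENCODE M21 (GRCm38) by identifier.

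The test was edgeR's (version 4.0.16, R 4.3.3) robust quasi-likelihood F test. The filterByExpr function chose the genes, TMM factors adjusted the library sizes, and a single fit with a mean per group used all 9 libraries. P-values were adjusted by the Benjamini-Hochberg method over 15117 genes, and genes under 0.05 are called. Standard errors are the size of the log2 fold change over the root of its F statistic. The fit was also run on simulated data drawn with its own estimates of the spread. That run cannot show whether these estimates hold for the cytokine genes. No libraries of a group agreed within sampling noise (lowest chi-square per degree of freedom 69.6). The list of members and the pathway and marker lists were chosen with earlier results of these data known. The genes named are all members, of each pathway list the called genes and the one with the highest mean CPM over the 9 libraries, and for each member tested the 3 genes of most similar pattern, and of marker lists the gene highest by the same measure and those a result turns on. Il18r1, Fosl2, Il10ra, Rora, Cpa3, Mcpt4, Fcer1a and Adad1, were named after their values were seen. Alternatives were DESeq2 1.42.0, its size factors, no filter and a filter of 1 CPM in 3 libraries, the 6 libraries compared, no mitochondrial genes, a replicate block and leaving out each library.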

Additional observations from a re-analysis of the deposited data

How the results depend on the processing

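Counts of cytokine genes called stayed at 0 under all alternatives for injured against uninjured meninges. For uninjured meninges against lung, the contrast of both meningeal groups together, chosen after seeing the data, called 1, and for injured meninges against lung DESeq2 called 2 and the fit without a filter 1. In leave-one-out fits all 3 counts were 0. The sign for injured against uninjured meninges was not stable for 4 genes, and the cause was not tested. Leaving out 1 library moved Il4 between -0.20 (without injured meninges 1) and 0.79. Il13 moved between -0.77 and 0.20, and was above 0 without uninjured meninges 1 (0.20) or injured meninges 3 (0.11). Csf2 moved between -1.21 and 0.80, and was above 0 without uninjured meninges 3 (0.80) or injured meninges 2 (0.034). Il2 moved between -1.42 and 0.23, and was above 0 without uninjured meninges 3 (0.23) or injured meninges 1 (0.024). In both comparisons with lung all 6 genes kept their sign under the alternatives run.

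Over all genes, the 29 calls after injury became 435 with DESeq2, 78 without a filter and 12 with the 6 libraries compared (18 to 27 with 1 library left out). The 96 calls of uninjured meninges against lung became 535, 193 and 226, and 321 in the joint contrast (51 to 196). The 159 of injured meninges against lung became 1091 with DESeq2 and 296 without a filter (54 to 230). Calls among genes of the pathway lists, 0, 4 and 8, became 6, 12 and 11 with DESeq2. After injury they became 4 without a filter and 1 with the 6 libraries compared (0 to 2 with 1 library left out). For uninjured meninges against lung they became 7 with DESeq2 size factors, 10 without a filter, 9 with the 6 libraries compared and 8 in the joint contrast (3 to 9). For injured meninges against lung they ranged from 5 to 8 with 1 library left out.

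In the labels, libraries with the same replicate number share only that number, and whether it marks a batch is not stated. Their deviations from group means correlated at -0.0394 to 0.1 over 9 pairs (median 0.018). Pairs with different numbers correlated at -0.126 to 0.101 over 18 pairs (median -0.019). Of 9 libraries, 4 correlated best with their own number. With the replicate block, Il4 became -0.34 and Csf2 0.037 for injured against uninjured meninges, calls among the pathway lists became 5 after injury and 10 for uninjured meninges against lung, and no cytokine gene was called. Counts of 0 to 23 reads per library limit the precision for Il3, Il9 and Il4 in lung.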
